A study of Homo sapiens with 6 samples.

Results

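The collagen chains were taken as the protein-coding genes of the deposited table whose symbol reads COL, a type number, A and a chain number. The pattern found 44 of 58735 genes. The table came from RNA sequencing of libraries labelled Hep3B, an established human liver cancer line. By the labels, 3 libraries carried a control short hairpin RNA (shRNA) and 3 carried an shRNA against HYOU1, a chaperone that helps proteins fold in the endoplasmic reticulum (ER), with no other treatment or allele named for either group. The sources used here do not give the hairpin sequences, the time after delivery or whether clones or separate cultures were used, so the p-values measure the spread between libraries, which may be technical. Levels are FPKM, fragments per kilobase of gene length scaled to the library's total, as the authors deposited them.

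Collagens are proteins of the extracellular matrix. Their chains join in the ER into a triple helix, after hydroxylation of prolines and lysines, and leave the cell for fibrils, sheets or filaments. Fibrillar collagens (types I, II, III, V, XI) form the fibres of tendon, bone and scar, collagen IV is the mesh of basement membranes, collagen VI forms beaded microfibrils and collagen VII anchors epithelium to the tissue beneath. In liver, fibrillar collagens come mainly from stellate cells and fibroblasts and accumulate in fibrosis.

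Between 16893091 and 18233240 fragments per library were recovered from the FPKM values and gene lengths. HYOU1 was at 37.6 to 59.5 FPKM in the controls and at 2.32 to 2.37 FPKM with HYOU1 shRNA, so each library matched its hairpin label. None of 8 hepatocyte genes reached a mean of 1 FPKM, and ALB, the albumin gene, was at 0 throughout, which goes against the labelled liver cancer cell line. No endothelial gene of 6 and no immune gene of 6 reached it either. Control replicate 1 stood apart from the others: across the 12448 genes averaging 1 FPKM or more, its log2 values correlated at 0.892 to 0.906 with the other controls, against 0.971 between those controls. It was low in genes of high GC content, and results are therefore also given without it and after a correction for GC content.

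Of the 44 chains, 16 averaged 1 FPKM or more over the 6 libraries, and these were the ones tested. A further 10 had a mean from 0.1 to 1 FPKM, 13 were above 0 but below 0.1 FPKM, and 5 were listed at 0 in every library. COL16A1, the weakest chain inside the limit, had a mean of 1.19 FPKM, and COL8A1, the strongest outside it, had 0.831 FPKM. COL6A2 and COL16A1 reached the limit only through the HYOU1 shRNA libraries, with control means of 0.913 and 0.918 FPKM.

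The 5 chains at 0 were COL1A2, COL6A5, COL11A1, COL19A1 and COL22A1. COL1A2 encodes the second chain of collagen I, whose common form joins the products of COL1A1 and COL1A2. For COL1A2 the limit set by 3 fragments was 0.0158 FPKM in the shallowest library, and such limits cover counting error only. Its partner COL1A1 was expressed, at a mean of 4.63 FPKM. Other partner chains were also near 0. COL6A3, COL6A5 and COL6A6 encode the chains that join the products of COL6A1 and COL6A2. COL6A3 had 26, 5 and 2 fragments in control replicates 1, 2 and 3 and 10 with HYOU1 shRNA together, so that without control replicate 1 the other 2 controls held 7 against 10 in 3 libraries, and COL6A6 had 13 and 11. For COL5A2, which joins COL5A1 in collagen V, the totals were 10 and 7. These 3 weak chains were singled out after their values were seen.

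The levels of all 44 chains summed to 170, 276 and 268 FPKM in control replicates 1, 2 and 3. With HYOU1 shRNA the sums were 213, 205 and 223 FPKM, above control replicate 1 and below control replicates 2 and 3. The 6 chains with the highest means, COL7A1, COL5A1, COL4A2, COL6A1, COL15A1 and COL4A1, made up 72.1% to 77.3% of the sum in the controls and 69.8% to 70.3% with HYOU1 shRNA. The order at the top of the controls was COL7A1, COL5A1, COL15A1 and COL4A2, with means of 45.6 ± 16.7, 39.3 ± 10.5, 32.4 ± 2.39 and 29.1 ± 10.5 FPKM (SD, n = 3). Neighbours in that order differed by less than the larger of their SDs. In control replicates 2 and 3 alone the means were 55.2, 45.3, 33.7 and 35.2 FPKM, so COL15A1 and COL4A2 changed places. With HYOU1 shRNA, COL6A1 was the highest in mean, at 36.5 ± 1.72 FPKM, ahead of COL7A1 at 35.3 ± 1.94 FPKM (SD, n = 3), and these values too lay within each other's spread.

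**Figure D1:**
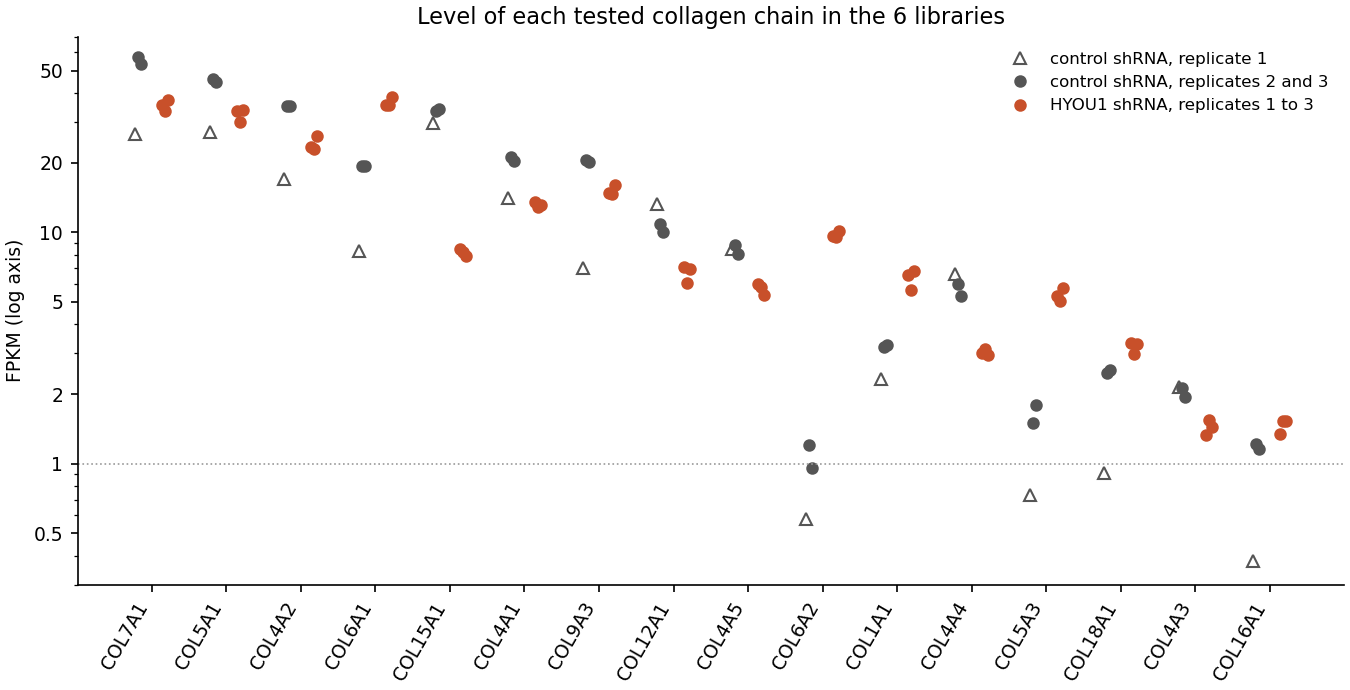
Level of each tested chain in FPKM (log axis) in every library: open triangles are control replicate 1, grey circles control replicates 2 and 3, and orange circles the HYOU1 shRNA replicates, with a dotted line at 1 FPKM. COL6A2 went from 0.577 to 1.20 FPKM in the controls to 9.52 to 10.2 FPKM with HYOU1 shRNA, while control replicate 1 lay below the other controls for 12 of the 16 chains.

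In bulk RNA, fewer cells of a type and less RNA per cell cannot be told apart. Collagen VI made up 5.30%, 7.45% and 7.58% of summed collagen FPKM in the controls and 21.2%, 21.99% and 21.9% with HYOU1 shRNA. COL15A1 and COL18A1, the multiplexins of vascular and epithelial basement membranes, together took 17.9%, 13.0% and 13.7% in the controls and 5.51%, 5.48% and 5.03% with HYOU1 shRNA. Collagen IV took 26.9% to 28.9% in the controls and 22.2% to 22.97% with HYOU1 shRNA. The groups did not overlap in any of these shares. The share of fibrillar chains was 18.1% to 19.0% in the controls and 20.5% to 21.7% with HYOU1 shRNA. COL7A1 lay at 15.6% to 20.7% and at 16.2% to 16.7%, and these ranges overlapped only through control replicate 1. Control replicates 2 and 3 were at 20.7% and 19.9%. A share also depends on the other chains. The summed levels of fibrillar chains were 30.8, 51.8 and 50.8 FPKM in the controls and 46.3, 42.0 and 47.4 FPKM with HYOU1 shRNA. Those of collagen IV were 49.1, 74.3 and 71.9 FPKM and 47.6, 47.1 and 49.4 FPKM. Both overlapped, only through control replicate 1. The summed levels of collagen VI and of the multiplexins did not overlap. An exact permutation test of 3 against 3 libraries cannot go below p = 0.1, so shares and ratios are described here without a test.

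**Figure D2:**
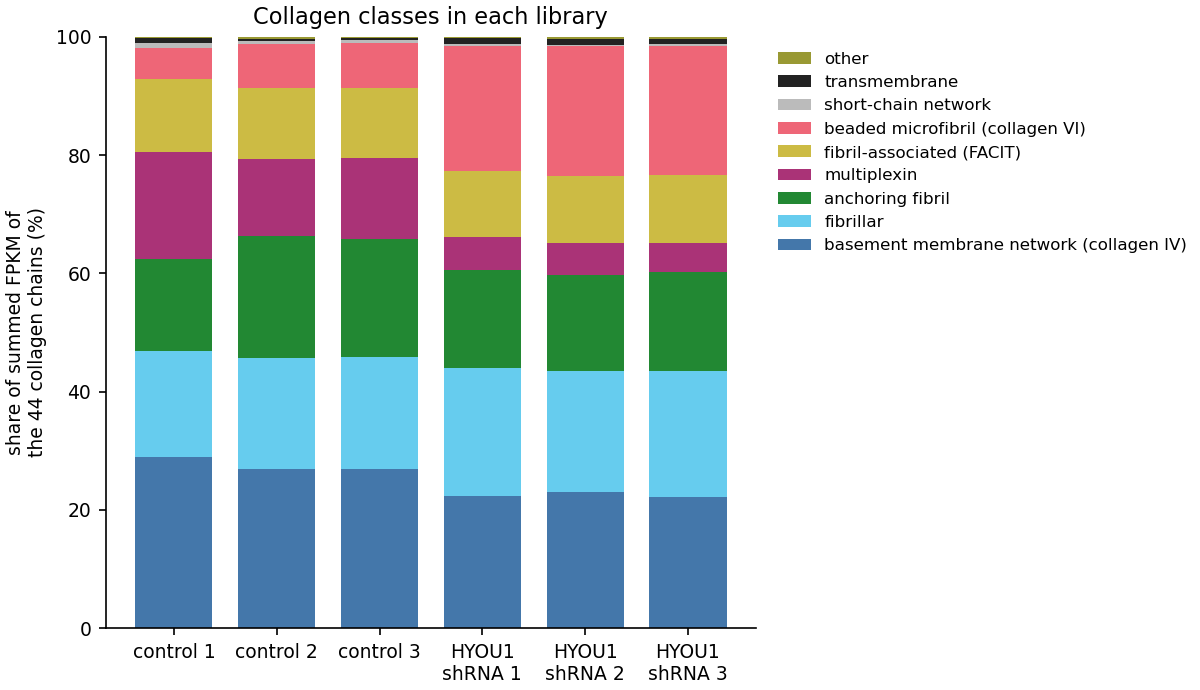
Share of the summed FPKM of the 44 chains that each structural class took, in percent, with 1 bar per library. The collagen VI part is 5.30% to 7.58% in the 3 control bars and 21.2% to 21.99% in the 3 HYOU1 shRNA bars, and the multiplexin part shrinks from at least 13.0% to at most 5.51%.

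The tested chains were rich in G and C. The median GC content of their longest transcripts was 61.6%, against 48.8% over all tested genes, with COL12A1 lowest at 46.3% and COL9A3 highest at 67.4%. Their genes were also long, with a median of 9544 exonic bases against 4494. Control replicate 1 was below both other controls in 12 of the 16 chains, against 47.1% of all tested genes. It was above both in 3, against 5605 of the 12448 tested genes. Its deviation from the mean of control replicates 2 and 3 was 0.34 on the log2 scale in COL12A1 and -1.51 in COL9A3, and correlated with GC content across the 16 chains at Pearson's r of -0.933 (Spearman's rho -0.900). Across 12442 tested genes Pearson's r was -0.714. The points share the same 3 libraries and genes are not independent replicates, so these values describe the libraries only.

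**Figure D3:**
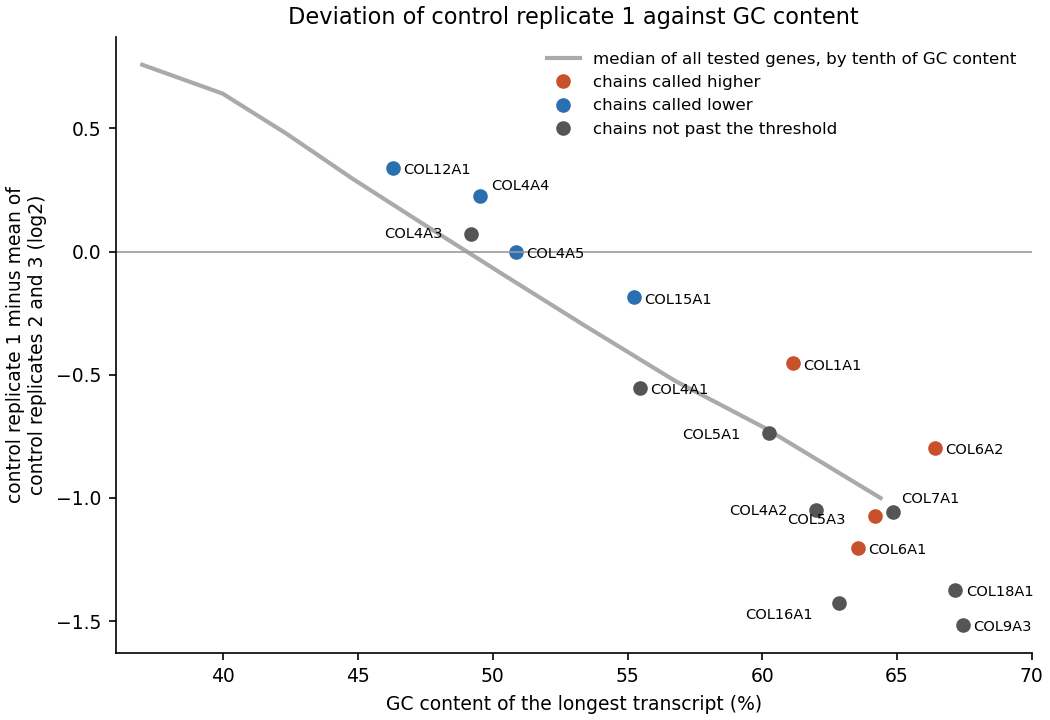
Deviation of control replicate 1 from the mean of the other control libraries (log2 scale) against the GC content of the longest transcript in percent, for the 16 tested chains, with colours for the result of the comparison and a grey line for the median of all tested genes in 10 bins of GC content. The chains follow the grey line downwards, from 0.34 for COL12A1 to -1.51 for COL9A3.

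The groups were compared with limma on log2(FPKM + 0.1), and a gene was called where its p, adjusted by Benjamini-Hochberg over all 12448 tested genes, was under 0.05. Every adjusted p below comes from limma. Differences are given on that log2 scale, on which those of weak genes come out too small. Of the 16 tested chains, 8 were called, against 12.3% of all tested genes. COL6A2, COL5A3, COL6A1 and COL1A1 rose (6.6% of all tested genes rose), and COL15A1, COL4A4, COL12A1 and COL4A5 fell (5.66% fell). At least 2-fold on that scale, 4 rose and 1, COL15A1, fell, against 3.04% and 2.09%. The ranges of the 2 groups were separate in 12 of 16 chains, against 44.4% of all tested genes, with 6 higher and 6 lower, against 23.8% and 20.6%. COL6A2 and COL16A1 passed the filter only through the HYOU1 shRNA libraries. The counts of higher chains that hold them, here and in the other fits, are therefore not independent of the filter. Without control replicate 1, 15 chains were called, 5 higher and 10 lower, against 24.6% and 19.7% of all tested genes (44.3% in either direction). The GC correction left 14 called, 4 higher and 10 lower, against 20.4% and 20.2% (40.6% in either direction). The median difference of the 16 chains was -0.22, against 0.035 for all tested genes. Leaving out control replicate 1 gave -0.48 against 0.021, and the GC correction -0.52 against 0.0036.

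**Figure D4:**
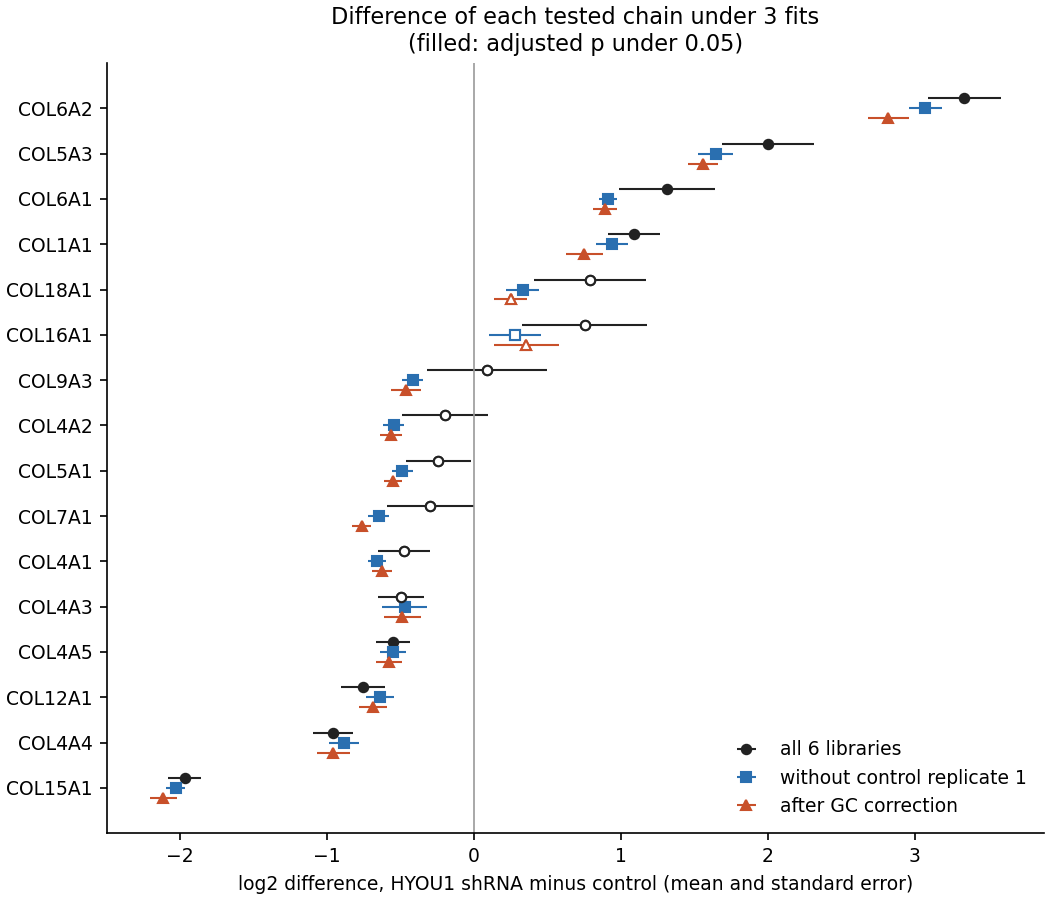
Difference of each tested chain between HYOU1 shRNA and control on the log2 scale, with its standard error, for all 6 libraries (black circles), without control replicate 1 (blue squares) and after the GC correction (orange triangles); filled marks have an adjusted p under 0.05. COL6A2 at 3.34 and COL15A1 at -1.97 lie at the ends in all 3 fits, and COL9A3 goes from 0.09 to -0.41 without control replicate 1.

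Both tested collagen VI chains rose. COL6A2 (ENSG00000142173) spans bases 46098097 to 46132849 of chromosome 21 on GRCh38. In control replicates 1, 2 and 3 its level was 0.577, 1.20 and 0.962 FPKM, and in HYOU1 shRNA replicates 1, 2 and 3 it was 9.68, 9.52 and 10.2 FPKM. All 3 HYOU1 shRNA values lay far above the controls, and the level in mean was 10.7-fold higher. The log2 difference was 3.34 ± 0.25 (SE, limma, adjusted p = 0.00289), 3.07 without control replicate 1 (adjusted p = 2.68e-06) and 2.82 after the GC correction (adjusted p = 8.8e-05). COL6A2 passed the filter of these fits only through the HYOU1 shRNA libraries. With the filter of 0.1 FPKM, which its control mean also passes, it was called too (limma, adjusted p = 0.00412). COL6A1 (ENSG00000142156, chromosome 21, 45981737 to 46005050), the other expressed collagen VI chain, was at 8.33, 19.3 and 19.3 FPKM in the controls and at 35.6, 35.5 and 38.5 FPKM with HYOU1 shRNA. Control replicate 1 was the low one, and no control reached the HYOU1 shRNA values. The log2 difference was 1.32 ± 0.33 (SE, limma, adjusted p = 0.0488). It was 0.92 without control replicate 1 (adjusted p = 4.03e-05) and 0.89 after the GC correction (adjusted p = 0.000448). COL6A1 was not past the threshold when any of the other 5 libraries was left out (adjusted p between 0.0532 and 0.172), nor with a filter of 0.1 FPKM (adjusted p = 0.0633), no filter (0.103) or quantile normalization (0.0537).

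The 2 chains changed by unequal amounts. The ratio of COL6A2 to COL6A1, both in FPKM, was 0.0692, 0.0620 and 0.0499 in control replicates 1, 2 and 3 and 0.272, 0.268 and 0.264 with HYOU1 shRNA, a 4.44-fold higher ratio in mean. Control replicate 1 did not stand apart in this ratio. The genes lie in tandem on chromosome 21 with 93.0 kb between them, and COL18A1 lies on the same strand 468 kb before COL6A1. SLC19A1, the 1 other tested gene between the start of COL18A1 and the end of COL6A2, differed by 0.32 and was not past the threshold (adjusted p = 0.338).

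The promoter of COL6A2 is shown beside that of COL5A3, the chains with the largest rises among the 16 with a mean of at least 1 FPKM. RefSeq promoter sequences on GRCh38.p14 were at hand for 32 of the 44 chains and 13 of the 16 tested, and the stretches below hold no base of any exon in GENCODE 29. Capitals mark matches to the GC box (GGGCGG, on either strand), the CCAAT box (CCAAT, either strand) and the TATA box (TATAAA, either strand).
COL6A2, chr21:46097862-46098096, plus strand: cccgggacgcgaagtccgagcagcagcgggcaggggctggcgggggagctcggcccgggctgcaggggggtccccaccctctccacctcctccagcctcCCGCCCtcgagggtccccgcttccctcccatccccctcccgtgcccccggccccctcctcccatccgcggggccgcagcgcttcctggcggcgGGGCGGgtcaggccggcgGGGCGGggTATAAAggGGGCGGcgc
COL5A3, chr19:10010505-10010754, minus strand: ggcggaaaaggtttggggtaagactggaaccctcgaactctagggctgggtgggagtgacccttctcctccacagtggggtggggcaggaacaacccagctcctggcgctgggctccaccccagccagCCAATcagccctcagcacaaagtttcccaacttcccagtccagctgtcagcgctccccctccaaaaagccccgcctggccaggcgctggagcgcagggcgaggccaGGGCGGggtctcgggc
The COL6A2 stretch of 235 bases had a GC content of 79.6% and held 4 GC boxes and 1 TATA box, with no overlap between matches. Among 35097 promoter stretches of that length, 42.0% held a GC box and 10.1% a TATA box. The COL5A3 stretch of 250 bases held 1 GC box and 1 CCAAT box, present in 42.6% and 32.0% of stretches of that length. Neither stretch held an AP-1 site (TGANTCA, either strand, in 6.57% of stretches of 250 bases) or an ER stress element (CCAAT, any 9 bases, then CCACG, either strand, in 0.0741%). These matches describe the letters only.

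Among fibrillar chains, 2 rose. COL5A3 (ENSG00000080573, chromosome 19, 9959561 to 10010471) encodes a less common chain of collagen V. Its level was 0.729, 1.502 and 1.80 FPKM in the controls and 5.30, 5.06 and 5.76 FPKM with HYOU1 shRNA. The lowest HYOU1 shRNA value was well above the highest control. The log2 difference was 2.00 ± 0.31 (SE, limma, adjusted p = 0.0148), 1.65 without control replicate 1 (adjusted p = 4.73e-05) and 1.56 after the GC correction (adjusted p = 0.000172). Leaving out HYOU1 shRNA replicate 1, 2 or 3 moved it past 0.05 (adjusted p = 0.0824, 0.0821 and 0.0870).

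COL1A1 (ENSG00000108821, chromosome 17, 50183289 to 50201632), the main chain of collagen I, was at 2.33, 3.20 and 3.27 FPKM in the controls and at 6.53, 5.61 and 6.83 FPKM with HYOU1 shRNA. The groups did not overlap, and the mean was 2.16-fold higher. Its log2 difference was 1.09 ± 0.18 (SE, limma, adjusted p = 0.0159), 0.94 without control replicate 1 (adjusted p = 0.000317) and 0.75 after the GC correction (adjusted p = 0.00396). It was not called without control replicate 2 (adjusted p = 0.0539) or without HYOU1 shRNA replicate 1, 2 or 3 (adjusted p = 0.0959, 0.0790 and 0.0980).

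COL5A1, the chain found in most collagen V and the fibrillar chain with the highest level, did not rise. It was at 27.2, 46.0 and 44.7 FPKM in the controls and at 33.3, 30.1 and 33.9 FPKM with HYOU1 shRNA, between control replicate 1 and the other controls. It was not called over all 6 libraries, at -0.24 (limma, adjusted p = 0.487), but was lower without control replicate 1, at -0.48 (adjusted p = 0.000966), and after the GC correction, at -0.55 (adjusted p = 0.00104). The ratio of COL5A3 to COL5A1 was 0.0268, 0.0327 and 0.0403 in control replicates 1, 2 and 3 and 0.159, 0.168 and 0.170 with HYOU1 shRNA.

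**Figure D5:**
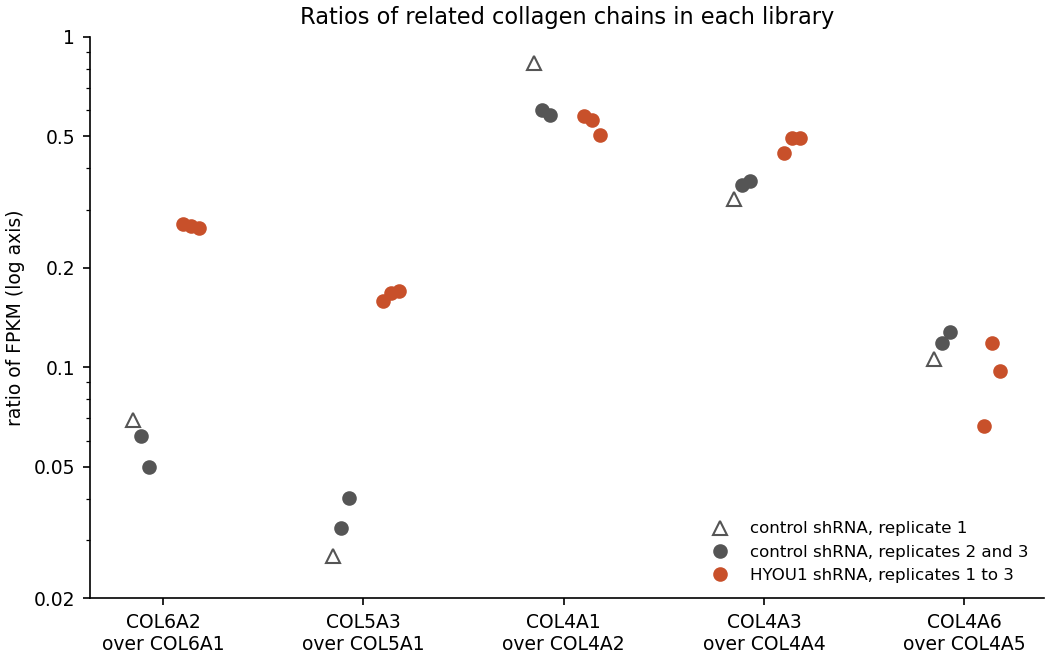
Ratio of the FPKM of related chains in each library (log axis): open triangles are control replicate 1, grey circles control replicates 2 and 3, orange circles HYOU1 shRNA replicates. COL6A2 over COL6A1 goes from at most 0.0692 to at least 0.264, COL5A3 over COL5A1 from at most 0.0403 to at least 0.159, and COL4A6 over COL4A5 overlaps between the groups.

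Of 5 tested collagen IV chains, 2 fell over all 6 libraries, and all 5 were called lower when control replicate 1 was left out and when GC content was corrected for. Of all tested genes, 5.66% fell over the 6 libraries, and 19.7% and 20.2% were called lower in those other fits. The 6 collagen IV genes lie head to head in pairs, COL4A1 with COL4A2 on chromosome 13, COL4A3 with COL4A4 on chromosome 2 and COL4A5 with COL4A6 on the X chromosome. COL4A1 and COL4A2 encode the chains of most basement membranes, and the other pairs are best known from kidney and other specialised basement membranes.

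COL4A4 (ENSG00000081052, chromosome 2, 227002711 to 227164453) was at 6.61, 5.96 and 5.33 FPKM in the controls and at 2.99, 3.13 and 2.94 FPKM with HYOU1 shRNA, 1.98-fold lower in mean with no overlap. Its log2 difference was -0.95 ± 0.14 (SE, limma, adjusted p = 0.0117), and -0.88 without control replicate 1 (adjusted p = 0.000328). It was not called without control replicate 2 (adjusted p = 0.0540) or HYOU1 shRNA replicate 1, 2 or 3 (adjusted p = 0.0778, 0.0777 and 0.0808). Its neighbour COL4A3 was at 2.14, 2.12 and 1.95 FPKM in the controls and at 1.33, 1.55 and 1.45 FPKM with HYOU1 shRNA. These values did not overlap, and the difference was -0.49 (limma, adjusted p = 0.0864). COL4A3 was called without control replicate 1, at -0.47 (adjusted p = 0.0379), and after the GC correction, at -0.49 (adjusted p = 0.0225). The ratio of COL4A3 to COL4A4 was 0.324, 0.355 and 0.366 in the controls and 0.446, 0.494 and 0.492 with HYOU1 shRNA.

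The stretch between the outermost annotated starts of COL4A4 and COL4A3 is shown because both lay below the controls and only 111 bases separate the gene models. RefSeq places their starts 418 bases apart. Capitals mark the 1 GC box found, which 32.9% of promoter stretches of that length, taken directly before RefSeq starts, hold. No CCAAT box, TATA box, AP-1 site or ER stress element was in it.
COL4A4 to COL4A3, chr2:227164454-227164564, plus strand: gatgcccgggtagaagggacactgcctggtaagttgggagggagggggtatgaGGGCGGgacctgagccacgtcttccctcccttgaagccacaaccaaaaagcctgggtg

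COL4A5 (ENSG00000188153, X chromosome, 108439844 to 108697545) was at 8.43, 8.78 and 8.09 FPKM in the controls and at 5.998, 5.83 and 5.38 FPKM with HYOU1 shRNA. The groups did not overlap, and control replicate 1 lay between the other controls. The log2 difference was -0.55 ± 0.12 (SE, limma, adjusted p = 0.0312), with the same value of -0.55 without control replicate 1 (adjusted p = 0.00161). It was not called when any library but control replicate 1 was left out (adjusted p between 0.0614 and 0.161), without a filter (0.0712) or with the replicate number as a block (0.0718). COL4A6, below the limit for testing, was at 0.890, 1.04 and 1.03 FPKM and at 0.397, 0.692 and 0.523 FPKM. Its ratio to COL4A5 overlapped between the groups.

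COL4A1 was at 14.1, 21.2 and 20.4 FPKM in the controls and at 13.5, 12.8 and 13.1 FPKM with HYOU1 shRNA, below every control. COL4A2 was at 16.9, 35.3 and 35.1 FPKM and at 23.4, 23.0 and 26.0 FPKM, between control replicate 1 and the others. Over all 6 libraries they differed by -0.47 (limma, adjusted p = 0.125) and -0.19 (adjusted p = 0.675). Without control replicate 1, COL4A1 was lower by -0.66 (adjusted p = 0.000146) and COL4A2 by -0.54 (adjusted p = 0.000586), and after the GC correction by -0.62 (adjusted p = 0.000752) and -0.56 (adjusted p = 0.00152). COL4A1 over COL4A2 was 0.834, 0.600 and 0.581 in the controls and 0.574, 0.558 and 0.505 with HYOU1 shRNA. RefSeq places their starts 126 bases apart, while the gene models overlap by 1422 bases.

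COL15A1 (ENSG00000204291, chromosome 9, 98943179 to 99070792) showed the largest fall. It encodes a chain of basement membrane zones around vessels and muscle. Its level was 29.6, 33.4 and 34.1 FPKM in the controls and 8.44, 8.26 and 7.90 FPKM with HYOU1 shRNA. Every HYOU1 shRNA value was far below every control, and the mean was 3.95-fold lower. The log2 difference was -1.97 ± 0.11 (SE, limma, adjusted p = 0.00168), -2.03 without control replicate 1 (adjusted p = 2.68e-06) and -2.11 after the GC correction (adjusted p = 5.89e-05). COL15A1 and COL6A2 were the only tested chains called under every alternative in which they were tested. An antisense gene shares 137 of its 6653 exonic bases, and the labels name no step that marks the strand.

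COL18A1, the other multiplexin, whose C-terminal fragment is endostatin, was at 0.907, 2.47 and 2.55 FPKM in the controls and at 3.31, 2.98 and 3.30 FPKM with HYOU1 shRNA. It was not called over all 6 libraries, at 0.79 (limma, adjusted p = 0.211), but was without control replicate 1, at 0.33 (adjusted p = 0.0413), and not after the GC correction, at 0.25 (adjusted p = 0.122). It shares 1401 of 8525 exonic bases with SLC19A1 on the other strand, so its level is uncertain.

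Among the fibril-associated collagens, which decorate the surface of fibrils, COL12A1 (ENSG00000111799, chromosome 6, 75084326 to 75206051) fell. It was at 13.2, 10.8 and 10.03 FPKM in the controls and at 7.07, 6.01 and 6.95 FPKM with HYOU1 shRNA, without overlap and with control replicate 1 the highest. The log2 difference was -0.75 ± 0.15 (SE, limma, adjusted p = 0.0272), -0.64 without control replicate 1 (adjusted p = 0.00113) and -0.68 after the GC correction (adjusted p = 0.00195). The call was lost without control replicate 2 (adjusted p = 0.0823), without HYOU1 shRNA replicate 1, 2 or 3 (0.114, 0.133 and 0.121) and without a filter (0.0630).

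COL9A3, a chain of the cartilage collagen IX, was at 7.02, 20.5 and 20.04 FPKM in the controls and at 14.8, 14.7 and 16.1 FPKM with HYOU1 shRNA. It had the highest GC content and the largest deviation of control replicate 1 among the tested chains. Its difference of 0.090 over all 6 libraries (limma, adjusted p = 0.895) became -0.41 without control replicate 1 (adjusted p = 0.00187) and -0.46 after the GC correction (adjusted p = 0.0114). COL16A1 was at 0.379, 1.22 and 1.15 FPKM and at 1.34, 1.53 and 1.53 FPKM, and was not called in any of these fits (limma, adjusted p between 0.227 and 0.267).

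COL7A1, which forms the anchoring fibrils of skin and had the highest mean of all chains, was at 26.5, 57.1 and 53.3 FPKM in the controls and at 35.4, 33.3 and 37.1 FPKM with HYOU1 shRNA. The HYOU1 shRNA libraries lay between control replicate 1 and the other controls. Over all 6 libraries the difference was -0.29 (limma, adjusted p = 0.524). Without control replicate 1 it was -0.65 (adjusted p = 0.000234), and after the GC correction -0.76 (adjusted p = 0.000343).

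The 10 chains with means from 0.1 to 1 FPKM were tested only with the lower filter of 0.1 FPKM, where 6.99% of 20512 genes were called, 3.85% higher and 3.14% lower. COL8A1 and COL13A1 were called among them. COL8A1, a short-chain collagen of vascular and corneal sheets, was at 1.32, 1.44 and 1.14 FPKM in the controls and at 0.398, 0.318 and 0.371 FPKM with HYOU1 shRNA. It fell by 1.60 on the log2 scale (limma, adjusted p = 0.0157), and 658 fragments in the controls stood against 183. COL13A1, a transmembrane collagen of adhesion sites, was at 0.00995, 0.0635 and 0.0946 FPKM in the controls and at 0.607, 0.388 and 0.553 FPKM with HYOU1 shRNA. It rose by 2.00 (limma, adjusted p = 0.0369), from 18 fragments in the control libraries together to 163. COL13A1 and COL2A1 reached the lower limit only through the HYOU1 shRNA libraries, with control means of 0.0560 and 0.0579 FPKM, so the call of COL13A1 is not independent of the filter. COL8A1 and COL13A1 were also called without control replicate 1 (limma, adjusted p = 0.00620 and 0.0172) and after the GC correction (adjusted p = 0.00277 and 0.0133). These fits used the same filter, so for COL13A1 the same limit holds.

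The other 8 of these chains were not called with the lower filter. COL4A6 differed by -0.79 (limma, adjusted p = 0.116) and was called after the GC correction, at -0.90 (adjusted p = 0.0346). COL25A1, another transmembrane chain, lay at 0.293 to 0.482 FPKM in the controls and at 0.530 to 0.607 FPKM with HYOU1 shRNA, and COL2A1, the cartilage fibril chain, at 0.0176 to 0.0920 and at 0.197 to 0.302 FPKM. Neither pair of ranges overlapped, and the adjusted p was 0.3002 and 0.171 (limma). COL17A1, of hemidesmosomes, lay at 0.386 to 1.04 and 0.785 to 0.871 FPKM, COL26A1 at 0.297 to 0.981 and 0.584 to 0.931 FPKM, and COL9A2 at 0.375 to 0.621 and 0.609 to 0.840 FPKM. COL27A1 lay at 0.331 to 0.518 and 0.478 to 0.592 FPKM, and COL11A2 at 0.113 to 0.420 and 0.237 to 0.291 FPKM. In these 5 chains the groups overlapped, in COL17A1 and COL11A2 only through control replicate 1. Without that library neither was called with the lower filter (limma, adjusted p = 0.0878 and 0.482).

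The 13 chains below 0.1 FPKM had between 1 and 43 fragments each in all 6 libraries together. COL14A1, a fibril-associated chain of fibroblasts, had 28 fragments in the controls and 3 with HYOU1 shRNA, and COL8A2 had 8 and 31. COL3A1, the partner of collagen I in most connective tissue, had 13 and 10. These 3 were chosen after their values were seen, and no test was made at this depth.

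Genes that act on collagen were taken as 5 lists with 70 members, of which 44 were tested. In all, 2 rose and 6 fell. Of all tested genes 6.6% rose and 5.66% fell, and the limma calls of each list below are to be read against these shares. For counts at an unadjusted p or by voom no share over all genes is given. Those counts describe the lists only. Of 14 tested genes of hydroxylation and glycosylation, 4 fell and 0 rose by limma, with a median difference of -0.11; 1 was higher at an unadjusted p under 0.05, and voom called 0 higher. P4HA3, a catalytic subunit of prolyl 4-hydroxylase, was at 17.8, 23.0 and 23.6 FPKM in the controls and at 7.19, 7.33 and 7.96 FPKM with HYOU1 shRNA, a difference of -1.49 ± 0.15 (SE, limma, adjusted p = 0.00473). PLOD2, a lysyl hydroxylase that acts on telopeptides, was at 24.6, 16.3 and 13.97 FPKM and at 8.33, 8.19 and 7.30 FPKM, a difference of -1.15 ± 0.22 (SE, limma, adjusted p = 0.0248). Without control replicate 1 PLOD2 differed by -0.92 (limma, adjusted p = 0.000197). No HYOU1 shRNA value of either gene reached a control value. P3H2, a prolyl 3-hydroxylase of collagen IV, fell by 0.88 (limma, adjusted p = 0.00931) and PPIB, the ER prolyl isomerase cyclophilin B, by 0.61 (adjusted p = 0.0201). P4HA1 differed by -0.10 (adjusted p = 0.729). P4HB, the disulfide isomerase subunit of prolyl 4-hydroxylase, differed by -0.36 (limma, adjusted p = 0.129), and was called at -0.48 without control replicate 1 (adjusted p = 0.000708).

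Of 13 tested genes of folding and export, 1 rose and 0 fell by limma; 1 was lower at an unadjusted p under 0.05, and voom called 1 lower, TRAPPC2, named after its value was seen. SEC24D, a COPII coat subunit needed for procollagen export, was at 9.92, 7.89 and 7.72 FPKM in the controls and at 14.8, 14.3 and 12.9 FPKM with HYOU1 shRNA, a difference of 0.72 (limma, adjusted p = 0.0272). SERPINH1, which encodes the collagen chaperone HSP47, was at 24.8, 38.2 and 41.0 FPKM and at 43.7, 43.6 and 46.2 FPKM, a difference of 0.39 that was not past the threshold (limma, adjusted p = 0.233). Its groups did not overlap. SERPINH1 was called after the GC correction, at 0.21 (limma, adjusted p = 0.0317), but not without control replicate 1, at 0.17 (adjusted p = 0.0601).

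Of 7 tested genes of propeptide cleavage and crosslinking, 2 fell and 0 rose by limma, with 0 higher at an unadjusted p under 0.05 or by voom. TLL1, a protease of the BMP1 family that cleaves procollagen, was at 6.39, 4.31 and 4.41 FPKM in the controls and at 1.31, 1.12 and 1.31 FPKM with HYOU1 shRNA, a difference of -1.91 ± 0.20 (SE, limma, adjusted p = 0.00554). PCOLCE2, an enhancer of that cleavage, fell by 0.95 (limma, adjusted p = 0.00847), and LOX, which crosslinks fibrils, differed by -0.21 (adjusted p = 0.588). In degradation and uptake, 1 of 4 tested genes was called: CTSB, a lysosomal protease, rose by 0.56 (limma, adjusted p = 0.0371). None of 6 tested receptors was called by limma, 3 had an unadjusted p under 0.05, and voom called 1 lower, ITGA1, named here after its value was seen. ITGB1, the beta-1 integrin, differed by -0.65 (adjusted p = 0.0709), CSPG4 by 0.65 (adjusted p = 0.109) and DDR1, a collagen-binding receptor kinase, by 0.25 (adjusted p = 0.477). ITGB1 was called lower without control replicate 1, at -0.44 (limma, adjusted p = 0.000904), and after the GC correction, at -0.48 (adjusted p = 0.000621). CSPG4 was called higher in those fits, at 0.39 and 0.23 (limma, adjusted p = 0.00332 and 0.0405), and DDR1 was called in neither. Without control replicate 1, 11 of the 44 genes rose and 15 fell, against 24.6% and 19.7% of all tested genes, and 2 receptors rose and 2 fell. The GC correction gave 12 higher and 16 lower, against 20.4% and 20.2%. Of the 8 genes called over all libraries, all 8 missed the threshold without HYOU1 shRNA replicate 3, 7 without replicate 2 and 6 without replicate 1. CTSB, SEC24D, PLOD2 and PPIB also missed it without control replicate 2 (adjusted p between 0.0586 and 0.0933), and CTSB and SEC24D without control replicate 3 (adjusted p = 0.0543 and 0.0643).

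Of 10 fibroblast and stellate cell genes outside the collagens, 5 reached a mean of 1 FPKM, and THY1 and PDGFRA were near 0. Their summed level was 82.8 to 116 FPKM in the controls and 84.0 to 93.7 FPKM with HYOU1 shRNA, most of it FBLN1. DES rose by 2.00 (limma, adjusted p = 0.00458), and DCN, a proteoglycan that binds collagen fibrils, fell by 1.35 (adjusted p = 0.00708). The 5 epithelial genes summed to 300 to 475 FPKM in the controls and to 580 to 675 FPKM with HYOU1 shRNA, nearly all of it KRT8 and KRT18. Of these, KRT18 was called higher, at 0.78 (limma, adjusted p = 0.0475). KRT8 and EPCAM lay above every control but were not called (limma, adjusted p = 0.137 and 0.0913). KRT19 had means of 5.60 and 2.32 FPKM and CDH1 of 0.620 and 0.248 FPKM in the controls and with HYOU1 shRNA, lower in mean with overlapping groups. In both, control replicate 1 was the high one, at 11.6 and 1.25 FPKM. In control replicates 2 and 3, KRT19 was at 2.86 and 2.39 FPKM and CDH1 at 0.294 and 0.316 FPKM. Mitochondrial genes took 4.96% to 7.59% of fragments in the controls and 3.39% to 3.84% with HYOU1 shRNA. The part of any of these in the collagen differences was not tested.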

How the data were processed

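Gene expression was measured by RNA sequencing of polyadenylated RNA in 6 libraries, 3 per group. The authors deposited 1 table of FPKM values with gene lengths. For the aligner, the counter and the use of strand, nothing is stated in the sources used here. The identifiers and coordinates of all 58735 genes matched GENCODE release 29 on GRCh38. FPKM times gene length came in whole steps (within 0.01 fragments), from which fragments were recovered.

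Genes averaging 1 FPKM or more were compared as log2(FPKM + 0.1) with limma 3.58.1 in R 4.3.3 (variance trend, robust priors), adjusted by Benjamini-Hochberg over 12448 genes and called under 0.05. The fit was tested on simulated data with independent noise, scaled without the deviations of control replicate 1 and with no trend in GC content. That test therefore does not cover the deviation of control replicate 1. The GC correction removed from each library a lowess trend (span 0.3) against GC content, taken from each gene's longest transcript, and with it any real difference that follows GC content.

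The members, lists and tests were chosen with earlier results of these data known. Every chain with a mean of at least 1 FPKM was named with all its values, those from 0.1 to 1 FPKM with their range, and those at 0 by name. From each list of 5, up to 4 called genes with the largest difference were named, or, in a list with none called, the 2 of highest mean, and always SERPINH1, P4HB, P4HA1, PLOD2, LOX and DDR1. Alternatives changed the pseudocount, the filter, the scaling, the test (voom on recovered fragments), the replicate block, the GC correction and the libraries included.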

Additional observations from a re-analysis of the deposited data

How the results depend on the processing

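The count of 8 called chains was 5 with a filter of 5 FPKM, which tests 10 chains, 14 after the GC correction, 13 with that correction and the replicate block, and 14 with it and without control replicate 1. With a filter of 0.1 FPKM, which tests 26 chains, it was 16 without control replicate 1 and 17 with the GC correction. Both settings were chosen after seeing the data, and COL13A1 passes that filter only through the HYOU1 shRNA libraries. The share of all tested genes called moved as well. It was 12.3% in the main fit, 40.6% after the GC correction and 44.3% without control replicate 1. Under the added settings it was 26.5% and 24.6%. For the filter of 5 FPKM and the combined settings no such share is given. Leaving out 1 library gave 2 to 15 chains. The other 8 alternatives gave 6 to 9. The count of 8 genes that act on collagen, of 44 tested, was 28 after the GC correction and 23 with that correction and the block. It was 30 with the correction and without control replicate 1. Without a filter it was 5 of 66 tested genes. Under the added settings, with the filter of 0.1 FPKM, it was 27 and 29 of 57 tested genes. Where a share of all tested genes is given above, these counts are to be read against it. Leaving out 1 library gave 0 to 26. The 0 came by limma without HYOU1 shRNA replicate 3, where 13 had an unadjusted p under 0.05, with no share over all genes given.

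COL9A3 changed sign to -0.46 after the GC correction, with and without the block, to -0.57 when control replicate 1 was also left out, and to -0.41 and -0.43 under the added settings. Leaving out 1 library gave -0.41 to 0.35 for COL9A3, -0.38 to 0.072 for LOX and -0.23 to 0.095 for P4HA1. With the added settings COL26A1 was at -0.083 and -0.092 and COL11A2 at -0.35 and -0.35, and COL27A1 was at -0.11 with the GC correction. DDR1 was at -0.11 after the GC correction, with and without the block, at -0.076 without control replicate 1 as well, and at -0.089 with the lower filter. LOX was at 0.038 and 0.072 without control replicate 1, with and without the correction, and at 0.072 with the lower filter. P4HA1 was at 0.052 after the GC correction, with and without the block, at 0.064 with it and without control replicate 1, at 0.095 without control replicate 1 at either filter, and at 0.074 with the lower filter and the correction. The cause was not tested.

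With the replicate number as a block 7 chains and 6 genes that act on collagen were called. COL4A5, CTSB and PPIB were lost (adjusted p = 0.0718, 0.0574 and 0.0506). The labels give the replicate numbers no meaning, so they were not taken as pairs. Same-numbered libraries deviated together at correlations of 0.125, -0.0933 and 0.170, and differently numbered ones at -0.214 to 0.160. For weak chains the depth is the limit, at 0.160 to 0.176 FPKM per 3 fragments and kilobase.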
